A study of Mus musculus with 5 samples.

Results

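The RNA of 49 genes of mitosis, the spindle and the kinetochore was compared between quiescent melanocyte stem cells (McSC) and melanocytes of mouse back skin. The genes were taken by symbol from a list of mitotic kinases, kinetochore proteins, kinesins and cytokinesis factors, and 49 of 49 were found among the 24100 genes of the count table. Cells sorted by flow cytometry were sequenced after poly-A selection, without strand information, all from male mice on a CD1/C57Bl6J mixed background. The quiescent McSC came from the second telogen, the resting phase of the hair cycle, with replicate 1 at postnatal day 60 and replicate 2 at postnatal day 62, each pooled from 4 males. The melanocytes came from full anagen, the growth phase, at postnatal day 10, in 3 replicates pooled from 3, 2 and 4 males. Every mouse carried Dct-eGFP, a green reporter driven by the gene of a melanin enzyme, and those of the melanocyte group also carried Lef1-RFP. Both gates kept eGFP-positive cells of medium to low integrin α6 that lacked CD31, CD45, CD140a, Sca1 and CD34, and the melanocyte gate added Lef1-RFP and c-Kit. Age, hair cycle stage, reporter and gate thus changed together and cannot be told apart.

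A dividing cell makes most of its mitotic proteins late in each cycle. Cyclin-dependent kinase 1 bound to cyclins A and B starts mitosis, Polo-like and Aurora kinases build the spindle, and kinesins slide and shorten its microtubules. Kinetochores, protein platforms on the centromeres, attach chromosomes to the spindle, and a checkpoint holds back the anaphase-promoting complex, a ubiquitin ligase, until all are attached. The ligase then removes securin, the inhibitor of the protease separase, so that sister chromatids part, and cytokinesis divides the cell. Many of these genes are known to be silenced in resting cells by the DREAM complex and switched on by MuvB with B-Myb and FOXM1, through a promoter element called the cell cycle genes homology region (CHR), often beside CCAAT boxes bound by NF-Y. Quiescent McSC are the resting reserve of the follicle's pigment lineage, and hair growth brings division in that lineage and, on a far larger scale, in the keratinocytes of the hair matrix.

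The CHR letters TTTGAA were searched on both strands of RefSeq promoter windows, each covering 250 bases before and 50 bases after an annotated start on GRCm38.p6. Of the 49 genes, 41 had a window, and 28 of these (68.3%) held TTTGAA, against 20.2% of the 27025 genes with a window and 15.2% of those tested for expression. The letters CCAAT, on either strand, stood in the windows of 30 of the 41 genes (73.2%), against 41.1% of all genes with a window and 42.2% of those tested. TTTAAA, a variant of the same element, was in 11 of 41 (26.8%), against 14.9% of all. TTTAAA reads the same on both strands, and TTTGAA and CCAAT can share no more than an end letter. TTTGAA and CCAAT occurred in the same window for 24 of 41 genes (58.5%), against 7.97% of all genes. A TTTGAA within 50 bases of the start, a range chosen after the positions were seen, was found for 25 of 41 genes (61.0%) and for 4.92% of all genes, counting the first window listed of each. These are matches of letters, with no measure of binding. The 120 bases before the start are printed below for 5 genes with large differences between the groups, followed by Bub3, with the smallest, and Pttg1, which differed in the opposite direction. Each sequence is from RefSeq, GRCm38.p6, read 5′ to 3′ on the gene's own strand, and the capitals mark both words as searched, on either strand.
Cdk1 (chr10:69352913-69353032, minus strand): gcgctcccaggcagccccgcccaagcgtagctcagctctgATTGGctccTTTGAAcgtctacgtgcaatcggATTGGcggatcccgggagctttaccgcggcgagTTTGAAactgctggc
Top2a (chr11:99024190-99024309, minus strand): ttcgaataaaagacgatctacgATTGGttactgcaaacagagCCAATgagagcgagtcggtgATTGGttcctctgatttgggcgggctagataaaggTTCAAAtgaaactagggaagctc
Mki67 (chr7:135716380-135716499, minus strand): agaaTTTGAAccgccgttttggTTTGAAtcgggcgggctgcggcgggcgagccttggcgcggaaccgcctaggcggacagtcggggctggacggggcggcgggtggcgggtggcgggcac
Ube2c (chr2:164769809-164769928, plus strand): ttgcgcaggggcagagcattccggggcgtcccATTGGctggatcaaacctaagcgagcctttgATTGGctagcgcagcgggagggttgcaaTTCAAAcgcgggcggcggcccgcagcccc
Kif11 (chr19:37376262-37376381, plus strand): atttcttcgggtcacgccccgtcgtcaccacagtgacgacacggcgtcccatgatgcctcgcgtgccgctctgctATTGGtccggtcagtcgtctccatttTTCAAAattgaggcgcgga
Bub3 (chr7:131560250-131560369, plus strand): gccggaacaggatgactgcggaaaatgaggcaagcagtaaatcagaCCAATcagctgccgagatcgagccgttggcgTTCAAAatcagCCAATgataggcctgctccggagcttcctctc
Pttg1 (chr11:43425982-43426101, minus strand): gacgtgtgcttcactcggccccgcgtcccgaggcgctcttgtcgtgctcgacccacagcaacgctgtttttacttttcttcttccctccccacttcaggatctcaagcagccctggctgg
The stretches of Cdk1 and Mki67 each hold 2 copies of the CHR letters, and those of Top2a, Ube2c, Kif11 and Bub3 hold 1. The Pttg1 stretch holds neither motif, but its start lies 1482 bases inside the outermost end of the annotated gene. Other starts of that gene were not searched. Such inner starts were not particular to Pttg1. Those of Kif2c and Kif14, whose windows held TTTGAA, lay 3852 and 1547 bases inside. Those of Cdc25b and Mybl2, whose windows lacked it, lay 512 and 308 bases inside. The printed genes were picked by hand, and lack of TTTGAA was not particular to Pttg1. The windows of Ccnb1, Bub1, Birc5 and Cenpe also lacked it, and those of Nusap1, Nuf2 and Mybl2 held none of the searched words. All of these genes except Pttg1 were called higher in melanocytes.

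Total counts ran from 17512381 to 124530834 per library, and the lowest count of any mitosis gene in any library was 63, so none lay near the limit of detection. Several libraries stood apart in the other cells they may hold. The summed level of 10 melanocyte lineage markers was 19199.5 to 20415 CPM (counts scaled to library size after TMM) in quiescent McSC and 3085, 18119 and 19781 CPM in melanocyte replicates 1 to 3, so replicate 1 was the low library, and 3 of the 10 markers were called lower in melanocytes and 7 not called. All 17 measured hair follicle matrix, sheath and shaft markers were called higher in melanocytes, with sums of 18.9 to 66.1 CPM in quiescent McSC and 3942 to 5787 CPM in melanocytes, and Krt34 was at 0 in quiescent McSC. Of 12 fibroblast and dermal papilla markers, 11 were called higher (96.0 to 119.7 against 2111 to 6331 CPM), as were 7 of 8 muscle and pericyte markers (80.7 to 84.1 against 140.4 to 285 CPM). The endothelial list had 7 of 8 higher (9.91 to 12.0 against 32.5 to 59.9 CPM, Cldn5 at 0 in quiescent McSC) and the immune list 5 of 8 (12.8 to 13.9 against 31.5 to 57.6 CPM). Of 12 epidermal keratinocyte markers, 6 were lower in melanocytes and 5 higher (3299 to 4568 against 3848 to 5271 CPM). The part of such cells in the differences below was not tested, and "melanocyte" and "quiescent McSC" refer to the libraries.

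Mitosis genes were higher in the melanocyte libraries with a single exception. By the quasi-likelihood test of edgeR, with Benjamini-Hochberg adjustment over all 16953 genes tested and a threshold of 0.05, all 49 were called, against 55.4% of all tested genes. Of these, 48 were higher in melanocytes, where 29.1% of all tested genes were called in that direction, and 1, Pttg1, was lower, against 26.2% of all. The 2 groups did not overlap in CPM for any of the 49, as was so for 74.5% of all tested genes. The median log2 fold change, melanocyte minus quiescent McSC, was 4.25 over the 49 genes and 0.03 over all tested genes. Together the 49 genes summed to 527 and 433 CPM in quiescent McSC replicates 1 and 2, and to 5792, 5543 and 5734 CPM in melanocyte replicates 1 to 3. In such bulk libraries fewer dividing cells and less mitotic RNA per cell cannot be told apart. All 49 calls and directions held under each of the 13 alternatives, which include leaving out each library. With library size as the only scaling, 63.7% of all calls were higher in melanocytes, against 52.6% with TMM, and the median over all genes was 0.26.

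**Figure D1:**
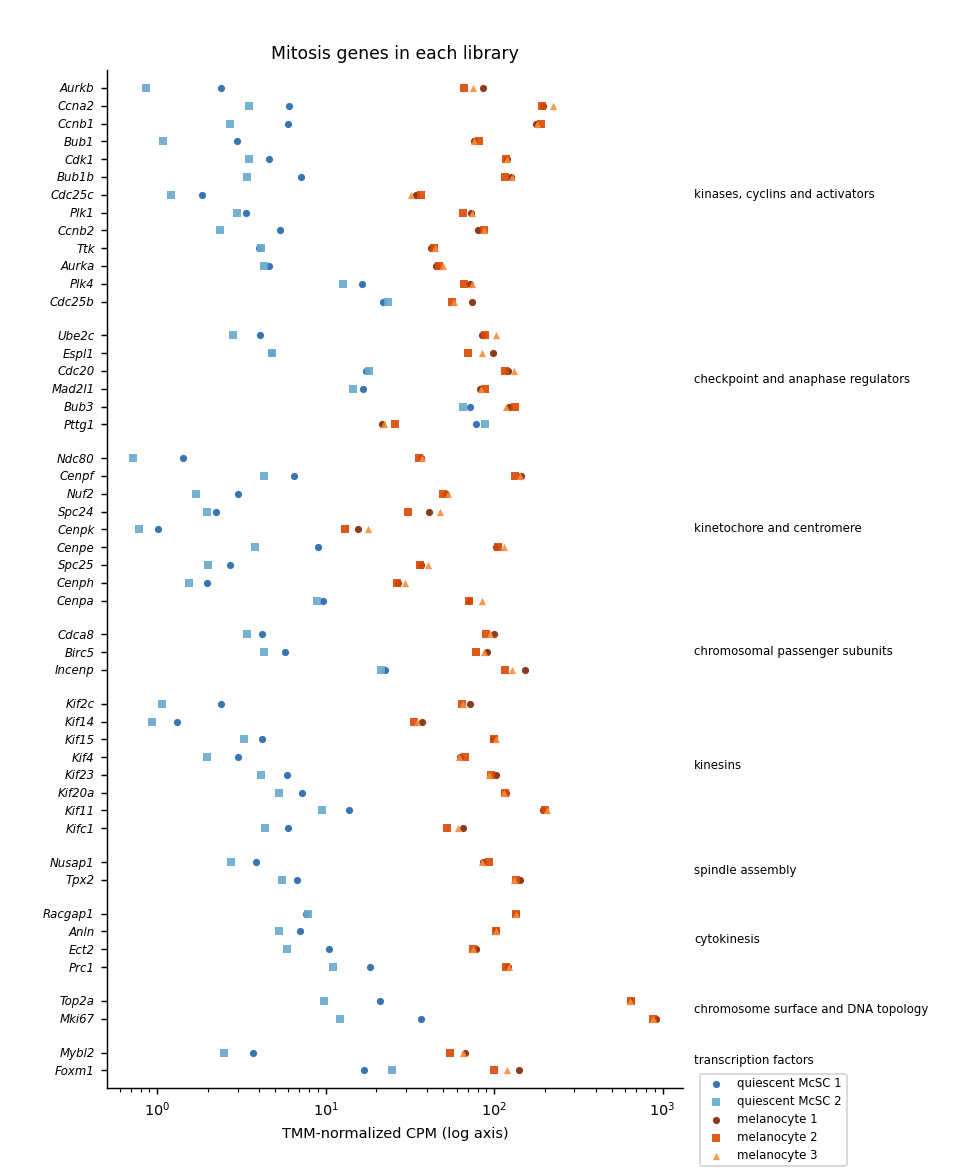
TMM-normalized CPM (log axis) of each of the 49 mitosis genes in the 2 quiescent McSC libraries (blue) and the 3 melanocyte libraries (brown to orange), grouped by role. For 48 genes both blue points lie to the left of all 3 melanocyte points, and for Pttg1 they lie to the right.

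All 13 kinases, cyclins and activating phosphatases were called higher in melanocytes, with log2 fold changes from 1.47 to 5.58. Cdk1 (chromosome 10, 69335146 to 69352912, minus strand), the kinase that starts mitosis, read 4.64 and 3.52 CPM in quiescent McSC replicates 1 and 2, and 119, 117 and 120.1 CPM in melanocyte replicates 1 to 3. The 3 melanocyte libraries were nearly level and far above both quiescent ones (log2 fold change 4.87 ± 0.17 SE, adjusted p = 3.65e-05). Its partner cyclins were low in the same places: Ccnb1, cyclin B1, read 5.97 and 2.72 CPM against 178, 190.3 and 179 CPM in the same order (5.40 ± 0.38, adjusted p = 0.000167). For Ccna2, cyclin A2, which acts from S phase into early mitosis, the change was 5.42 ± 0.30, and for Ccnb2, the second B cyclin, 4.48 ± 0.38. Per length of merged exon, Ccnb1 stood at 0.406 and 0.418 times the level of Ccnb2 in quiescent McSC and at 0.801, 0.794 and 0.742 times in melanocytes. The CDC25 phosphatases, which remove inhibitory phosphates from Cdk1, were unlike each other in size of change. Cdc25b, the form that acts at the centrosome, read 21.9 and 23.3 CPM against 73.7, 56.6 and 58.1 CPM (1.47 ± 0.16, adjusted p = 0.00066), whereas Cdc25c, a mitotic form, read 1.84 and 1.21 CPM against 34.2, 36.6 and 32.3 CPM (4.50 ± 0.26, adjusted p = 8.74e-05).

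The Aurora and Polo-like kinases were all higher in melanocytes. Aurkb, Aurora B, the kinase that corrects faulty attachments (chromosome 11, 69045624 to 69051664, plus strand), read 2.39 and 0.857 CPM against 86.3, 66.6 and 74.6 CPM (5.58 ± 0.49, adjusted p = 0.000339). This value was 6.46 without quiescent McSC replicate 1 and 4.98 without replicate 2. Aurka, Aurora A, the centrosome and spindle pole kinase, read 4.62 and 4.29 CPM against 45.3, 47.0 and 49.9 CPM (3.41 ± 0.14, adjusted p = 4.49e-05). Plk1, which serves mitotic entry, spindle and cytokinesis, differed by 4.48 ± 0.15. Plk4, the kinase that starts centriole duplication, differed by 2.28 ± 0.16 and read 16.4 and 12.7 CPM in quiescent McSC. The ratio of Plk1 to Plk4 per exon length was 0.641 and 0.738 in quiescent McSC and 3.10 to 3.16 in melanocytes. Among checkpoint kinases, Bub1 differed by 5.28 ± 0.47, Bub1b (BubR1, a part of the inhibitor of the anaphase-promoting complex) by 4.55 ± 0.35 and Ttk (Mps1, which starts the checkpoint) by 3.41 ± 0.14. No difference between relatives was tested.

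**Figure D2:**
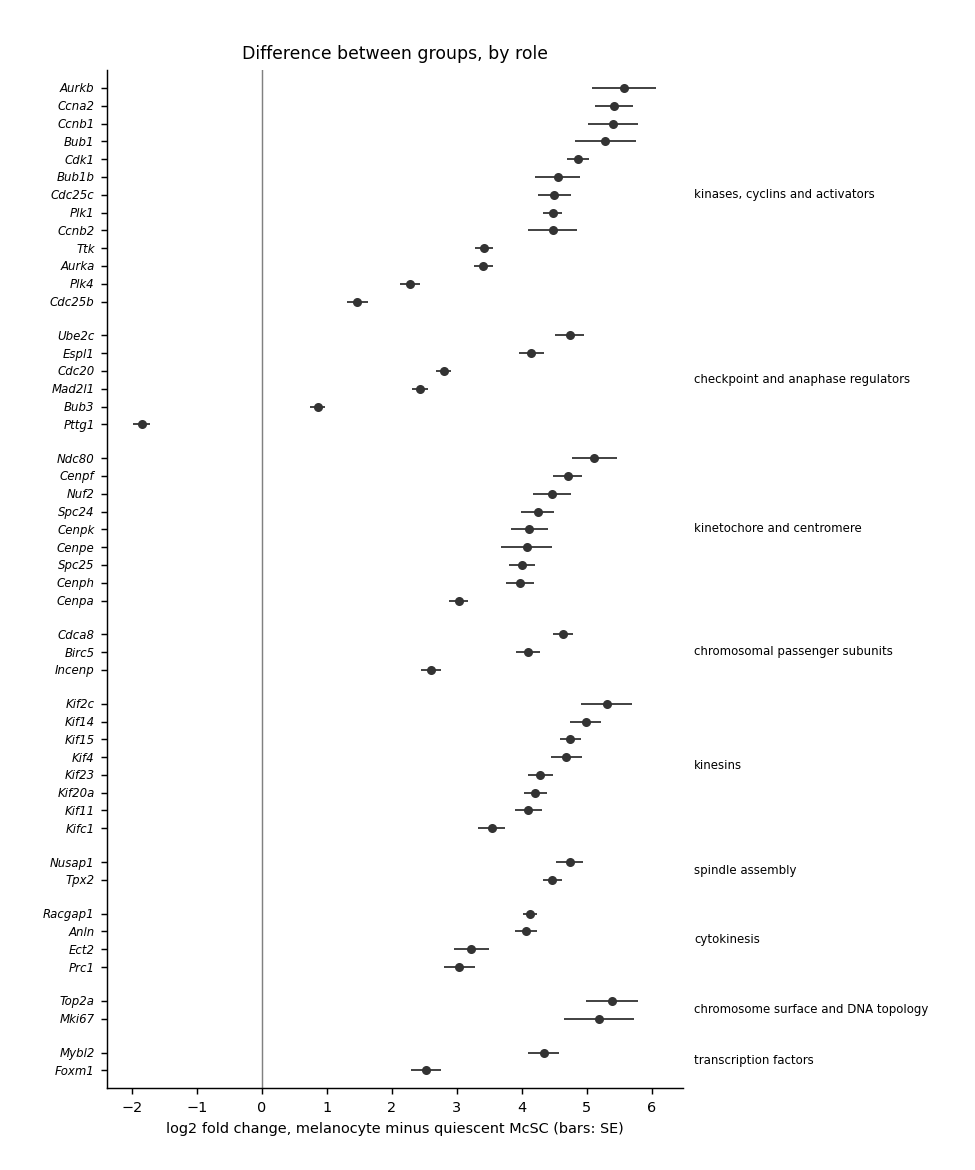
Log2 fold change of each of the 49 mitosis genes, melanocyte minus quiescent McSC, with the standard error as bars, grouped by role and ordered within each. Values run from 5.58 for Aurkb to 0.86 for Bub3 above 0, and Pttg1 lies below 0 at -1.85.

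Of the 6 checkpoint and anaphase regulators, 5 were called higher in melanocytes and 1 lower. Pttg1, securin, the inhibitor of separase (chromosome 11, 43420244 to 43427463, minus strand), read 78.6 and 88.3 CPM in quiescent McSC replicates 1 and 2, and 21.6, 25.7 and 22.1 CPM in melanocyte replicates 1 to 3. Both quiescent libraries thus stood above all melanocyte libraries (log2 fold change -1.85 ± 0.13, adjusted p = 0.000154; 3.61-fold higher in quiescent McSC), and the value stayed between -1.96 and -1.63 over the alternatives. The target of securin moved the other way: Espl1, separase, the protease that opens cohesin rings, read 4.75 and 4.78 CPM against 98.4, 70.4 and 84.5 CPM (4.15 ± 0.19, adjusted p = 5.94e-05). Per exon length, securin RNA stood at 72.5 and 80.9 times separase RNA in quiescent McSC, and at 0.961, 1.60 and 1.14 times in melanocytes. No exon of Pttg1 overlaps another gene in GENCODE M21, and no transcript of another gene matched at least 20% of it at 95% identity. Epidermal Krt10 (657 and 1261 CPM against 70.5, 14.3 and 37.1 CPM) and Krt1 (196 and 328 CPM against 26.1, 2.65 and 9.46 CPM) stood on the same side as Pttg1, as did 6 of the 12 epidermal markers in all, while 5, among them Krt5 (662 and 756 CPM against 1786, 1332 and 1245 CPM) and Trp63 (89.6 and 77.6 CPM against 611, 658 and 546 CPM), were higher in melanocytes. Over all tested genes 26.2% were called lower in melanocytes. Other lists also held markers on the side of Pttg1. These were 3 of 10 lineage markers (Mitf, Kit and Sox10, the other 7 not called) and 1 of 8 endothelial markers (7 higher). They also included 1 of 8 muscle and pericyte markers (7 higher) and 2 of 8 immune markers (5 higher). The part of any of these cells in the Pttg1 difference was not tested.

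Bub3, a checkpoint protein that carries Bub1 and BubR1 to kinetochores (chromosome 7, 131560367 to 131571895, plus strand), had the smallest difference of the 49 genes. It read 72.5 and 65.0 CPM against 123, 133 and 118 CPM in the order quiescent McSC against melanocytes (0.86 ± 0.11, adjusted p = 0.0013), so the groups did not overlap although they lay close together. The ratio of Bub3 to Bub1 per exon length was 15.1 and 37.1 in quiescent McSC and 1.00, 1.01 and 0.966 in melanocytes. Mad2l1 (Mad2), which seizes Cdc20 while the checkpoint is on, differed by 2.44 ± 0.12. Cdc20, the activator of the anaphase-promoting complex, read 17.4 and 18.0 CPM against 122, 117 and 132 CPM (2.80 ± 0.11, adjusted p = 4.49e-05). Ube2c, the ubiquitin-conjugating enzyme that works with that complex, was far lower at rest, at 4.07 and 2.84 CPM against 84.4, 88.8 and 103 CPM (4.74 ± 0.22, adjusted p = 6.00e-05).

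All 9 kinetochore and centromere genes were called higher in melanocytes, with a median log2 fold change of 4.12 and a range from 3.03 to 5.12. The 4 subunits of the Ndc80 complex, the rod that holds the microtubule, were Ndc80 at 5.12 ± 0.34, Nuf2 at 4.46 ± 0.29, Spc24 at 4.25 ± 0.26 and Spc25 at 4.01 ± 0.21. Ndc80 itself read 1.43 and 0.723 CPM against 36.6, 36.1 and 37.6 CPM, with no overlap between the groups. Spc24 had the widest melanocyte spread of the 49 genes, at 41.0, 31.0 and 48.0 CPM. Cenpa, the histone variant that marks the centromere, had the smallest change of this group, and read 9.69 and 8.87 CPM against 71.5, 71.0 and 84.9 CPM (3.03 ± 0.15, adjusted p = 6.40e-05). Of the constitutive centromere proteins, Cenph differed by 3.97 ± 0.21 and Cenpk by 4.12 ± 0.29. Cenpe, a kinesin that carries chromosomes to the spindle equator, differed by 4.07 ± 0.40 and Cenpf, a large protein of the outer kinetochore, by 4.71 ± 0.22.

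The chromosomal passenger complex combines Aurora B with 3 subunits, and all 4 genes were higher in melanocytes. Birc5, survivin, which docks the complex at the centromere, differed by 4.10 ± 0.19, and Cdca8, borealin, by 4.63 ± 0.16. Incenp, the scaffold that activates Aurora B, read 22.4 and 21.2 CPM against 152, 117 and 129 CPM (2.60 ± 0.15, adjusted p = 9.44e-05). Per exon length, Aurkb was at 0.157 and 0.0594 times Incenp in quiescent McSC and at 0.833 to 0.852 times in melanocytes. By this measure the kinase stood below the scaffold in every library, and by more at rest. The merged length counts exons of all annotated transcripts and can exceed that of an mRNA. The ratios of 0.833 to 0.852 therefore do not show which RNA was scarcer in melanocytes.

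The 8 kinesins were all higher in melanocytes (median log2 fold change 4.49, range 3.54 to 5.31). Kif11, Eg5, the motor that pushes spindle poles apart, read 13.8 and 9.53 CPM against 194, 201 and 206 CPM (4.10 ± 0.20, adjusted p = 6.53e-05). Kif2c, MCAK, which dismantles microtubule ends to free wrong attachments, differed by 5.31 ± 0.39. Kif15, a motor that can share the work of Kif11, differed by 4.75 ± 0.16, and the chromosome-bound Kif4 by 4.69 ± 0.24. Kif14, of the midbody, differed by 4.99 ± 0.23, while Kif20a and Kif23, both of the central spindle, differed by 4.21 ± 0.18 and 4.29 ± 0.20. Kifc1, the minus-end motor that clusters poles, differed by 3.54 ± 0.21 (4.13 with all libraries thinned to the depth of the shallowest), a value that is uncertain because 98.1% of its transcript matches Kifc5b at 96.8% identity.

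Both spindle assembly genes and all 4 cytokinesis genes were called higher in melanocytes. Tpx2, which activates Aurora A at microtubules, differed by 4.47 ± 0.15, and Nusap1, which bundles microtubules near chromatin, by 4.74 ± 0.20. In cytokinesis, Racgap1 forms centralspindlin with Kif23 and read 7.64 and 7.86 CPM against 135, 136 and 135 CPM (4.12 ± 0.11, adjusted p = 3.65e-05), with the replicates of each group almost equal. Anln, anillin, the scaffold of the contractile ring, differed by 4.06 ± 0.17. Ect2, the exchange factor that turns on RhoA at the cell equator, differed by 3.22 ± 0.27, and Prc1, which crosslinks the central spindle, by 3.04 ± 0.24. In quiescent McSC replicates 1 and 2, Ect2 read 10.5 and 5.91 CPM and Prc1 18.2 and 11.0 CPM.

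Mki67 and Top2a had the highest levels of the 49 genes in melanocytes, both by mean CPM and per length of merged exon. Mki67 (Ki-67), which coats mitotic chromosomes and is the usual stain for cycling cells, read 36.6 and 12.2 CPM in quiescent McSC replicates 1 and 2, and 919, 874 and 873 CPM in melanocyte replicates 1 to 3 (5.19 ± 0.54, adjusted p = 0.000592). The log2 fold change was 6.18 without quiescent McSC replicate 1 and 4.60 without replicate 2. Its quiescent libraries differed 3.00-fold from each other, the widest gap of the 49 genes, yet both lay far below every melanocyte library. Top2a, topoisomerase IIα, which untangles sister chromatids, read 21.1 and 9.82 CPM against 646, 649 and 641 CPM (5.39 ± 0.39, adjusted p = 0.000183). The transcription factors that drive such genes were also higher in melanocytes. Mybl2, B-Myb, averaged 3.09 ± 0.841 CPM (SD, n = 2) at rest and 62.3 ± 6.89 CPM (SD, n = 3) in melanocytes, a log2 fold change of 4.34 ± 0.24 in the edgeR fit (adjusted p = 8.07e-05). Foxm1 was at 17.0 and 24.7 CPM against 141, 99.95 and 119 CPM (2.53 ± 0.23, adjusted p = 0.000399). Foxm1 was the gene with the lowest ratio of quiescent replicate 1 to replicate 2, 0.687.

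The order of the RNAs within each group was compared per length of merged GENCODE exons (RPKM, from mean CPM). Merged exons pool all annotated transcripts of a gene, so their length can exceed that of an mRNA. For Mad2l1 it was 8390 bases, more than the span of its RefSeq gene (66535221 to 66541107). The order given here holds for this measure only. In melanocytes the highest levels were those of Mki67 at 88.3, Top2a at 71.6, Cdc20 at 66.2, Ccnb2 at 55.5 and Ccna2 at 49.8 RPKM, and the lowest was that of Cenpk at 2.96 RPKM. In quiescent McSC, Pttg1 led at 41.7 RPKM, followed by Bub3 at 9.81, Cdc20 at 9.49, Cdc25b at 6.07 and Incenp at 5.03 RPKM. Mki67 was at 2.43 RPKM there, in place 8. Pttg1 stood far above its neighbour in both quiescent libraries (39.3 and 44.1 against 10.3 and 9.28 RPKM for Bub3), whereas Bub3 and Cdc20 (9.33 and 9.65 RPKM) overlapped. In melanocytes Pttg1 was in place 37 of 49.

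The quiescent replicates were not level for these genes. In 42 of 49 (85.7%) replicate 1 read higher than replicate 2, against 47.9% of the 16478 tested genes with counts in both, and the median ratio was 1.36. In 9 of 49 (18.4%) the ratio exceeded 2, against 4.22% of those tested genes. The 9 were Mki67, Aurkb, Bub1, Cenpe, Kif2c, Ccnb2, Ccnb1, Top2a and Bub1b, with ratios from 2.08 to 3.00. By contrast Racgap1, Cdc20, Ttk and Espl1 lay between 0.966 and 0.994, and Pttg1 at 0.891. Among markers of other cells with counts in both libraries, replicate 1 read higher for 12 of 14 hair follicle, 10 of 12 fibroblast and 3 of 7 muscle and pericyte markers, but for 1 of 12 keratinocyte, 1 of 5 endothelial and 2 of 7 immune markers, and for 6 of 10 lineage markers. Their part in the gap was not tested. Without quiescent McSC replicate 1 the median log2 fold change of the 49 genes was 4.55, and without replicate 2 it was 4.07. Without replicate 1 the fold change of 9 genes moved by over 1.5 times, to log2 values of 6.06 for Ccnb1, 5.16 for Ccnb2, 6.15 for Bub1, 5.16 for Bub1b, 4.81 for Cenpe, 5.98 for Kif2c and 6.04 for Top2a, and for Aurkb and Mki67 as given above.

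**Figure D3:**
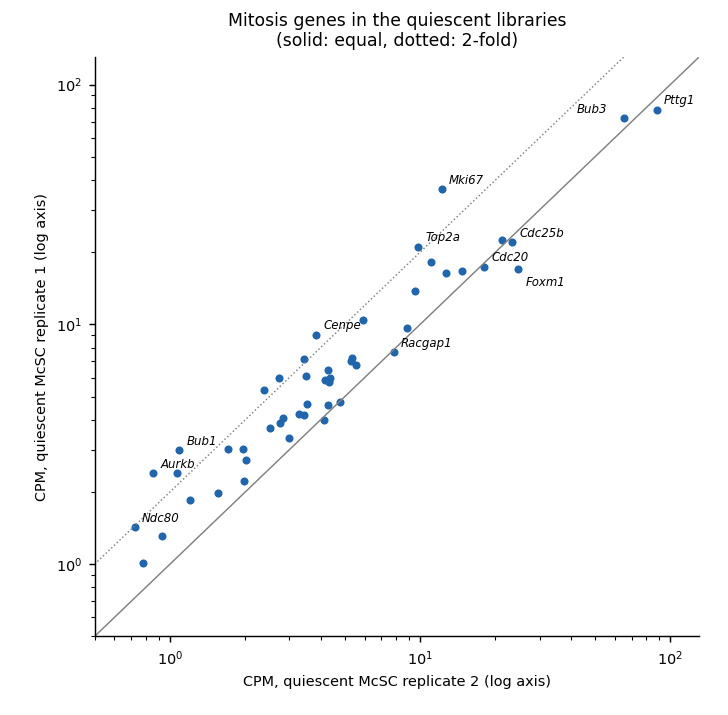
CPM of the 49 mitosis genes in quiescent McSC replicate 1 (vertical) against replicate 2 (horizontal), both on log axes, with lines at equal level and at 2-fold. Most points lie above the line of equality, Mki67 the farthest at 3.00-fold, while Foxm1 and Pttg1 lie below it.

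The melanocyte replicates agreed closely in mitosis genes although their lineage markers did not. The ratio of the highest to the lowest of the 3 libraries had a median of 1.11 over the 49 genes, against 1.36 over the 16595 tested genes with counts in all 3, and it was under 1.5 in 48 of 49 (98.0%) against 60.1% of those genes. Replicate 1, whose lineage markers were low, held the mitosis genes at the level of the others: the log2 ratio of replicate 1 to replicate 3 had a median of -0.00 and ran from -0.28 to 0.34. The same ratio had a median of -2.74 over 10 lineage markers (Dct at 1073 against 6505 CPM, Tyr at 219 against 1676 CPM), -0.34 over 17 hair follicle markers, 0.56 over 12 keratinocyte markers and 1.73 over 12 fibroblast markers. The highest melanocyte library was under 1.5 times the lowest for 7 of 17 hair follicle, 4 of 12 keratinocyte, 1 of 12 fibroblast, 1 of 8 endothelial, 1 of 8 muscle and pericyte, 0 of 8 immune and 0 of 10 lineage markers. Which cells of the melanocyte libraries gave the mitotic RNA was not tested. Without melanocyte replicate 1 the 49 calls were the same, and 48 of 49 genes were again higher.

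**Figure D4:**
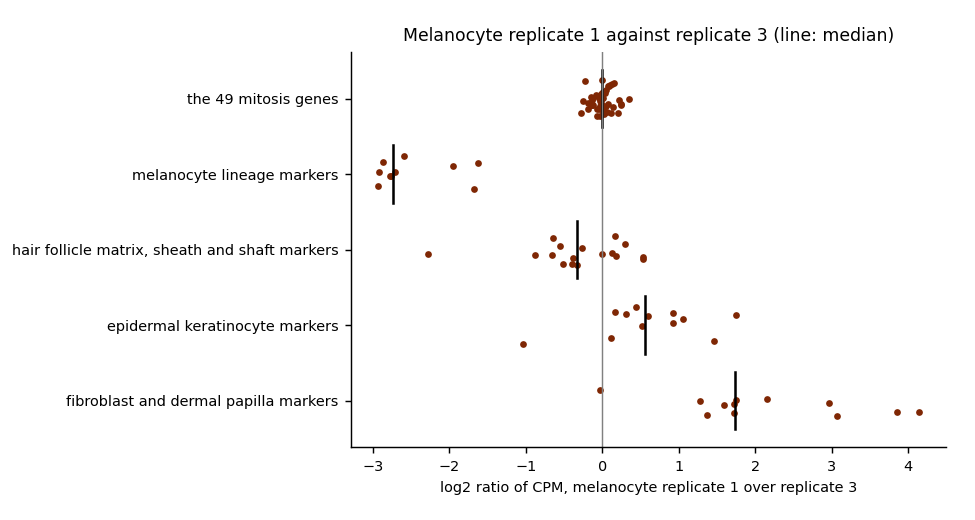
Log2 ratio of CPM in melanocyte replicate 1 to replicate 3, 1 point per gene, for the 49 mitosis genes and 4 lists of cell type markers, with the median as a line. Mitosis genes cluster at 0 within -0.28 to 0.34, while lineage markers have a median of -2.74 and fibroblast markers of 1.73.

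A further 127 genes of mitosis, listed by textbook role, held changes in both directions. Of these, 85 (66.9%) were called higher in melanocytes, against 29.1% of all tested genes, 12 (9.45%) lower, against 26.2%, and 30 not called, with a median log2 fold change of 1.33. All 8 condensin genes, whose products compact chromosomes, were higher, from 0.66 to 5.40 for Ncapg, with Ncaph at 4.45 ± 0.14 and the shared subunit Smc2 at 2.96 ± 0.13. Of 31 other kinetochore and checkpoint genes, 22 were higher and 1 lower, and of 31 other spindle and centrosome genes 24 were higher and 1 lower. Among them, Ska1 and Ska3 of the microtubule-tracking Ska complex differed by 5.57 ± 0.27 and 3.08 ± 0.17, and Kif22 and Tacc3 of the spindle by 4.43 ± 0.17 and 3.47 ± 0.12. Of 7 other cytokinesis genes 6 were higher, including Depdc1b (5.89 ± 0.33), Iqgap3 (4.73 ± 0.18) and Arhgap11a (4.22 ± 0.21), and the general GTPase gene Rhoa was the 1 lower.

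The lists of the anaphase-promoting complex, cohesin and MuvB had medians near 0. Of 17 genes of the anaphase-promoting complex and its regulators, 5 (29.4%) were higher, near the 29.1% of all tested genes, 2 (11.8%) lower and 10 not called (median 0.16). The higher ones included the inhibitor gene Fbxo5 (Emi1, 3.37 ± 0.13) and the activator gene Fzr1 (Cdh1, 1.24 ± 0.14), and the core subunit Anapc16 was lower (-0.81 ± 0.12). Of 14 cohesin genes, 7 were higher, 2 (14.3%) lower and 5 not called (median 0.26), with the acetyltransferase gene Esco2 (5.25 ± 0.43) and the centromere protectors Sgo1 (4.15 ± 0.15) and Sgo2a (3.22 ± 0.20) among the higher. Of 6 MuvB and Myb genes 3 were higher and 2 (33.3%) lower, with Rbbp4 at 0.77 ± 0.13 and Lin52 at -0.80 ± 0.14.

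Of the other kinases and their controls, 10 of 13 (76.9%) were higher, against 29.1% of all tested genes. The other 3 (23.1%) were lower, near the 26.2% of all tested genes. Melk differed by 5.22 ± 0.30 and Cdc25a, the CDC25 form of S-phase entry, by 2.56 ± 0.14. Wee1, the kinase that puts the inhibitory phosphate on Cdk1, had the largest change toward quiescent McSC and read 342 and 288 CPM in quiescent McSC replicates 1 and 2, and 40.6, 37.7 and 47.5 CPM in melanocyte replicates 1 to 3 (-2.91 ± 0.15, adjusted p = 6.92e-05). Per exon length, Cdk1 RNA was at 0.00938 and 0.00845 times Wee1 RNA in quiescent McSC and at 2.03, 2.15 and 1.75 times in melanocytes. Ensa, which inhibits a mitotic phosphatase when phosphorylated, read 288 and 279 CPM against 111, 105 and 109 CPM (-1.39 ± 0.10, adjusted p = 0.000177), and Nek7, a kinase with roles in the spindle and in inflammasome assembly, differed by -0.98 ± 0.11. Mad2l1bp, which removes Mad2 and silences the checkpoint, was also lower (-1.04 ± 0.20, adjusted p = 0.00601), a call lost without quiescent McSC replicate 2 (adjusted p = 0.0578, the highest over the alternatives, whose lowest was 4.10e-06). Without that library 6 of the 127 genes were called lower, and 7 were with library size only. Of the further genes named, the fold changes of Esco2 and Ncapg moved by over 1.5 times without quiescent McSC replicate 1, to log2 values of 6.03 and 5.999. Those of Depdc1b and Ska1 also moved by over 1.5 times, to as much as 6.98 and 6.16, in alternatives that left out no library.

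**Figure D5:**
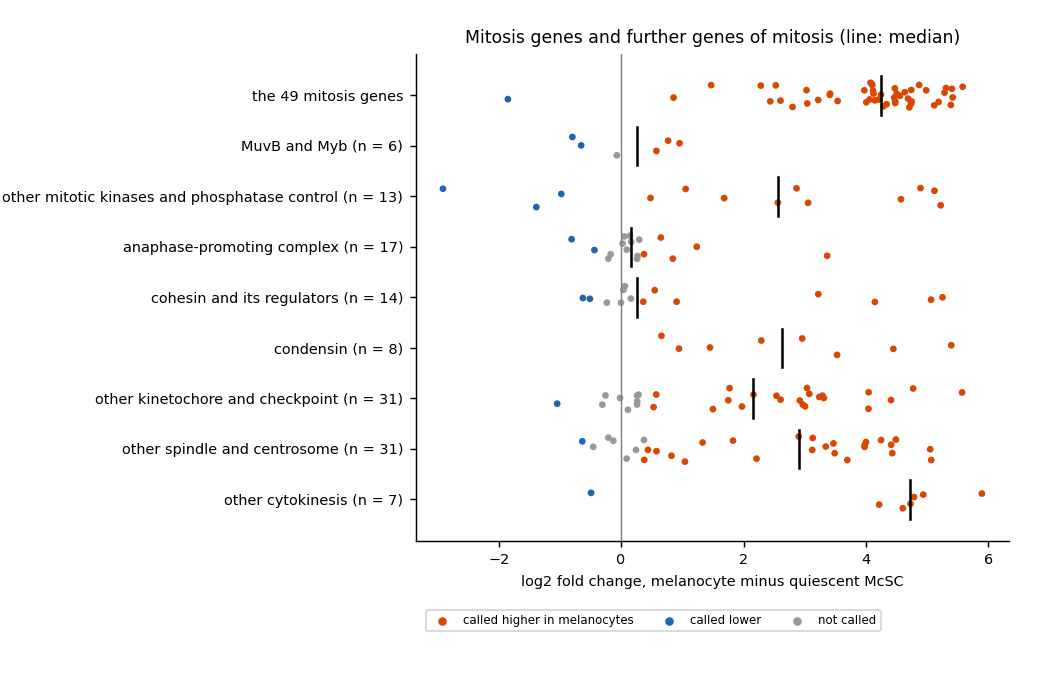
Log2 fold change, melanocyte minus quiescent McSC, of the 49 mitosis genes and of 127 further genes of mitosis by role, 1 point per gene, colored by call, with the median of each row as a line. Row medians run from 0.16 for the anaphase-promoting complex, 0.25 for MuvB and 0.26 for cohesin to 2.62 for condensin, 2.90 for the other spindle genes and 4.73 for the other cytokinesis genes, and single genes above 5 appear in the kinase, cohesin, condensin, kinetochore, spindle and cytokinesis rows.

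The CHR letters were also read in the promoter windows of these further genes. Of those called at least 4-fold higher in melanocytes, 46 had a window and 27 of them (58.7%) held TTTGAA. Of the rest, 59 had a window and 12 (20.3%) held it. Among all tested genes so called (12.7% of those tested) the share was 21.4% of 1606. These shares describe letters in a window, and no difference between them was tested.

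The counts of some genes could hold reads of others, because the libraries carry no strand and the counting step is not given in the sources used here. On GRCm38, exons of 14 of the 49 genes overlap exons of another GENCODE M21 gene, most on the opposite strand. The largest shares were 29.3% of the exon bases of Kif20a, shared with Cdc23, 22.8% of Ube2c, shared with Tnnc2, and 15.1% of Kif4, shared with Pdzd11. Processed pseudogenes match 52.0% of the Ccnb1 transcript at 98.1% identity and 20.3% of that of Mybl2 at 99.7%. The Prc1 transcript matches Rccd1 over 22.1% of its length at 100% identity. Values of these genes and of Kifc1 are uncertain to that extent.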

How the data were processed

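The authors deposited a table of raw counts per gene, by Entrez ID, for 5 libraries; these counts are whole numbers and not normalized. Per the submitters' processing notes, STAR 2.5.2a, Salmon 0.8.2 and the mouse build mm10 were used, and the role of each tool is not given in the sources used here. Each library is a separate pool of mice, per the labels. IDs were matched to symbols for 24045 of 24100 genes. Genes passing filterByExpr (16953) were scaled by TMM and tested with the quasi-likelihood test of edgeR 4.0.16 (R 4.3.3), in both directions, calling genes whose p adjusted by Benjamini-Hochberg was under 0.05. The script was tested on simulated data. Fold changes are given on the log2 scale with their standard error, and CPM are TMM-scaled. Pooled over genes, replicates differed far beyond sampling noise (chi-square per degree of freedom 43.7 to 163). This pooled value need not hold for each mitosis gene, and the part of depth in the precision of single genes was not tested.

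The 49 genes, the further lists and the markers were chosen with earlier results of these data known. Of the further genes, those named are the 5 with the largest change in each direction and the 2 with the smallest p in each sub-list. Rhoa and the markers given by value were chosen after their values were seen. Gene coordinates are from RefSeq, and strands and exon lengths are from GENCODE M21 (GRCm38). Promoters are from RefSeq; protein sequences were not used here. The 13 alternatives covered scaling, filters, DESeq2 1.42.0, limma-voom (limma 3.58.1), the replicate block, thinning to the shallowest library and leaving out each library.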

Additional observations from a re-analysis of the deposited data

How the results depend on the processing

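Over the 13 alternatives, 0 of 637 pairs of a mitosis gene and an alternative lost a call and 0 reversed. The median log2 fold change of the 49 genes was 4.48 with library size only, and 4.07 to 4.55 when 1 library was left out. Of the 127 further genes, 7 were called lower with library size only and 7 with the replicate block, and 6 to 14 when 1 library was left out, with the 6 coming from the fit without quiescent McSC replicate 2. Over all genes, 2955 to 4857 were called lower when 1 library was left out, the 2955 again without quiescent McSC replicate 2. The cause was not tested. Where 1 quiescent library remained, it was assumed to vary like the melanocyte libraries. Mad2l1bp, at -0.82 without quiescent McSC replicate 2, had an adjusted p of 0.0578 in that fit of edgeR. The labels do not say that same-numbered libraries shared a batch. Deviations of such libraries from their group means correlated at 0.0404 and -0.0552. With 2 quiescent libraries the deviations mirror each other, so these values cannot show whether a batch was shared. With the replicate block 48 of the 49 genes were higher and 1 lower, as without it, and 7412 genes in all were called against 9385. The lowest count of a mitosis gene was 63. With all libraries thinned to the depth of the shallowest the 49 calls held, while the log2 fold change of Kifc1 went from 3.54 to 4.13. The 2 quiescent pools bound the precision of every fold change.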
